A study of Mus musculus with 14 samples.

Results

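Control cells of the mouse acute myeloid leukemia line KL974 were compared 2 days after a hairpin was switched on with the same cells at day 0. The comparison takes 4 of the 14 libraries of the series, chosen by their titles: 2 libraries of control hairpin cells that were induced and sorted at day 2, and 2 libraries of control hairpin cells at day 0. RNA-seq counts of 10791 genes were tested, of 53465 in the table.

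All groups share 1 cell line, whose genotype is labelled Trp53R172H;shMll3;shNf1, so a mutant Trp53 and hairpins against Mll3 (Kmt2c) and Nf1 are present in the day 0 cells too. The cytokines IL3, IL6 and SCF (all murine) were in the medium of every group. A lentiviral vector had been introduced in which doxycycline turns on an shRNA together with blue fluorescent protein (BFP). The hairpin here was shRen713, a control with no stated mouse target. Day 0 cells had no doxycycline, and their titles name no sort. Day 2 induced cells had doxycycline and were isolated by flow cytometry as BFP positive. The difference therefore combines time in culture, doxycycline, sorting and the expressed control hairpin, which cannot be told apart within it. For reference, 2 further groups of 2 libraries are given: BFP negative (uninduced) cells of the same doxycycline-treated culture system at day 2, and BFP positive control cells at day 4. Whether the 2 libraries of a group came from different cultures is not stated, and each p-value is set against library-to-library spread that could be technical.

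Stress programmes whose known target genes make up some of the lists below are outlined here as background. Their activity was not measured. Cells short of oxygen stabilise hypoxia-inducible factor (HIF), which raises genes for glycolysis, lactate export, angiogenesis and mitochondrial turnover, and whose own degradation is marked by the prolyl hydroxylases of the Egln family. Cells short of amino acids, or under other stresses that act on translation initiation, make more ATF4, which raises amino acid transporters, synthesis enzymes and tRNA synthetases. When membrane cholesterol is low, SREBP2 is released and raises the enzymes of the mevalonate and sterol pathway.

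The promoters of 6 genes are shown because their transcripts carry the results below and because each holds the short motif of one of these pathways. Each run is the 250 bases before the RefSeq transcript start on GRCm38.p6, and capitals mark the motif. For Bnip3, Ddit4 and Slc16a3 the capitals mark the HIF core (ACGTG or GCGTG, either strand).
Bnip3, chr7:138909507-138909756, minus strand: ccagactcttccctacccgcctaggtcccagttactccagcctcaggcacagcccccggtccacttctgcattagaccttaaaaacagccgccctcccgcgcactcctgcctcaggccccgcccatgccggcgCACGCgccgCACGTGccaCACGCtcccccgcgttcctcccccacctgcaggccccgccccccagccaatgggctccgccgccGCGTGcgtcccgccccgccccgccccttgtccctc
Ddit4, chr10:59951771-59952020, minus strand: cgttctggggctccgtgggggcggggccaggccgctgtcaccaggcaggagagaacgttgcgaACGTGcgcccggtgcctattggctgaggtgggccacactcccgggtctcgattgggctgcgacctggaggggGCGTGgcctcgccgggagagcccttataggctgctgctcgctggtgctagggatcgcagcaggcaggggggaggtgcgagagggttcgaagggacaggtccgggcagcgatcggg
Slc16a3, chr11:120948817-120949066, plus strand: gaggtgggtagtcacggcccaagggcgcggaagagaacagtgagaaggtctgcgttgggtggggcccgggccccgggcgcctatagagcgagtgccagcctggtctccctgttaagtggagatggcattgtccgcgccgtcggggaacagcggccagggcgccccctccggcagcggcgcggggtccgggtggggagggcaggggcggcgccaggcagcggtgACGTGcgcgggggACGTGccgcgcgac
For Asns and Chac1 the capitals mark the amino acid response element (TGATGNAA, either strand).
Asns, chr6:7693210-7693459, minus strand: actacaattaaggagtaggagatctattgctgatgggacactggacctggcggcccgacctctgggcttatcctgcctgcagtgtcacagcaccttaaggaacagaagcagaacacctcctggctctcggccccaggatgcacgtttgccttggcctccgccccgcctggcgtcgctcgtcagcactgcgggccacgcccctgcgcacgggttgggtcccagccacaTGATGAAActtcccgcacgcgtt
Chac1, chr2:119350992-119351241, plus strand: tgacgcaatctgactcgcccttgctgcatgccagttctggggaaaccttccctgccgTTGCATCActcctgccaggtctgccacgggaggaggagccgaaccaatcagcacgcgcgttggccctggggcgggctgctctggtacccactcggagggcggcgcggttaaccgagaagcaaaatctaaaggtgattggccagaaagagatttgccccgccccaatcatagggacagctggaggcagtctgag
For Hmgcs1 the capitals mark a sterol element (TCACNCCAC, either strand).
Hmgcs1, chr13:119690101-119690350, plus strand: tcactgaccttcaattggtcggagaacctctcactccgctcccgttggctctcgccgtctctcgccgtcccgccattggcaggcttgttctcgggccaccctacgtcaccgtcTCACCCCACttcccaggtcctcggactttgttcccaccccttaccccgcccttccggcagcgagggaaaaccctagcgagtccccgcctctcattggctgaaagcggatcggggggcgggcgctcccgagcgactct
The HIF core was found in the promoter of 26 of the 28 tested hypoxia genes with a RefSeq promoter, against 63.4% of the 8306 tested genes with one and 41.5% of all 27025 genes with one. It is so short that most tested genes hold it. The amino acid response element was in 7 of 31 ATF4 list genes, against 2.19% of tested genes. In the Asns promoter it lies 23 bases before the start, and in the Chac1 promoter 193 bases before the start on the other strand. The sterol element was in 1 of 17 sterol list genes (Hmgcs1), against 1.20% of tested genes. CCAAT, the box bound by NF-Y, which is known to act beside SREBP, was in 16 of these 17 genes, against 41.4% of tested genes. A match of letters is a description of the window and not evidence of binding.

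The libraries held 2831835 and 2567604 counts at day 0 and 3008718 and 1500031 counts in BFP positive cells at day 2. Replicates agreed within 1.16 (day 0) and 1.70 (day 2) times the counting variance, as chi-square per degree of freedom. In a principal component analysis the second component (14.6% of the variance) scored the BFP positive day 2 libraries at -12.9 and -24.1 and the other 12 libraries between -12.8 and 12. After all libraries were thinned to 913482 counts, the day 2 BFP positive libraries had the fewest genes with a count (12406 and 12518, against 12689 and 12741 at day 0). The share of counts on mitochondrial genes was 1.63% and 1.56% at day 0 and 2.75% and 3.09% in BFP positive cells at day 2. Whether these measures take part in the results was not tested.

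At an adjusted p under 0.05 (edgeR quasi-likelihood test, Benjamini-Hochberg over all tested genes), 1928 genes were called, which is 17.9% of those tested. Of these, 982 (9.10%) were higher and 946 (8.77%) lower on day 2, and the median log2 fold change over all tested genes was 0.00. Most calls were small: the median size among called genes was 0.50 on the log2 scale. More than 2-fold higher were 124 genes (1.15%), and more than 2-fold lower were 139 (1.29%). The number of calls fell to 860 without day 2 BFP positive replicate 1, to 1033 without day 0 replicate 1 and to 1110 without day 0 replicate 2, and DESeq2 called 817. In bulk RNA, fewer cells that hold a transcript and less of it per cell cannot be told apart.

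**Figure D1:**
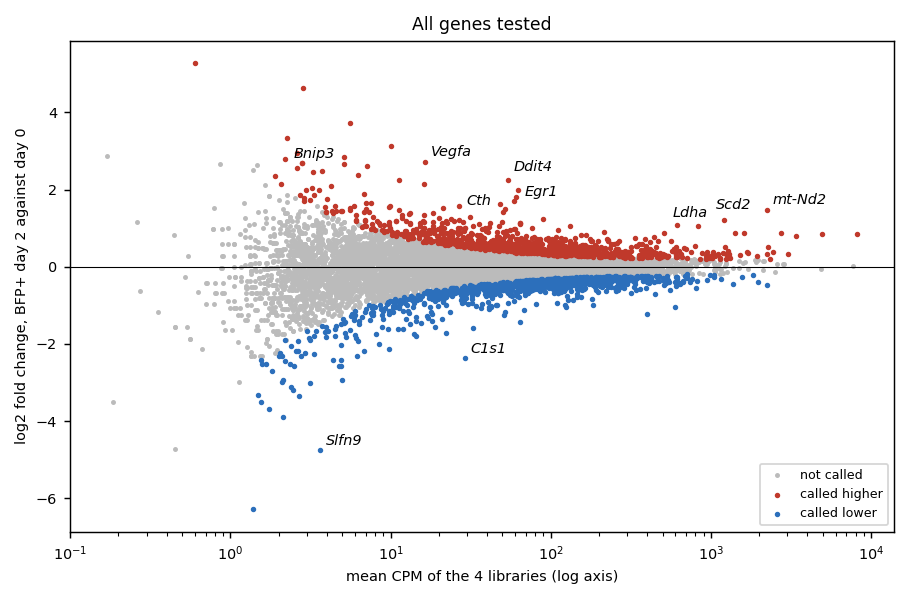
Log2 fold change of BFP positive control cells at day 2 against day 0 for each tested gene (y axis) against its mean CPM over the 4 libraries (x axis, log scale). Red and blue points are the 982 higher and 946 lower genes at an adjusted p under 0.05; the widest changes sit at low levels.

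Hypoxia genes were mostly higher on day 2. Of 40 genes listed, 33 were tested, 18 were called higher and 1 lower, with a median log2 fold change of 0.42 beside 0.00 over all genes and 9.10% of all genes called higher. In 29 of the 33 the groups did not overlap, against 58.5% of all tested genes. The count was 10 without day 2 BFP positive replicate 1, 12 without day 0 replicate 1 and 10 by DESeq2. Vegfa, the angiogenic ligand (ENSMUSG00000023951, chromosome 17, 46016993 to 46032369 on GRCm38), measured 4.26 and 4.30 CPM (counts scaled to equal library size over the tested genes) at day 0 and 27.5 and 30.0 CPM in BFP positive cells at day 2. Its rise was 6.60-fold (log2 2.72 ± 0.29, standard error; adjusted p = 2.78e-11), and the groups did not overlap. Slc16a3, the lactate exporter MCT4, is in the glycolysis list and not in the hypoxia list. Slc16a3 rose from 2.48 and 1.56 CPM to 18.2 and 17.7 CPM (3.12 ± 0.38, adjusted p = 2.56e-09). It rests on 11 counts at day 0 and 79 at day 2, a ratio of 8.83 with a 95% counting interval of 4.68 to 18.4.

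Bnip3, a mitophagy receptor whose promoter above holds 5 matches to the HIF core (ENSMUSG00000078566, chromosome 7, 138890836 to 138909519), measured 1.06 and 1.56 CPM at day 0 and 7.57 and 10.2 CPM on day 2. That is a log2 change of 2.67 ± 0.53 (adjusted p = 0.000128) from 7 and 37 counts, a ratio of 6.5 with a counting interval of 2.86 to 17.3. Bnip3 overlaps annotated genes on the other strand, and no source used here gives the strand setting of the counting, so their reads cannot be told apart. Ddit4 (REDD1), an inhibitor of mTORC1 that both HIF and ATF4 are known to induce (ENSMUSG00000020108, chromosome 10, 59949669 to 59951834), went from 22.4 and 15.6 CPM to 98.1 and 79.7 CPM (2.25 ± 0.16, adjusted p = 1.65e-17). P4ha1, a collagen prolyl hydroxylase, went from 29.1 and 25.8 CPM to 80.6 and 72.9 CPM (1.5 ± 0.15, adjusted p = 3.49e-12). In each of these genes both day 2 libraries lay above both day 0 libraries. Pdk1, the kinase that closes pyruvate dehydrogenase, rose by 1.16 ± 0.15 (adjusted p = 1.1e-08).

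The lower hypoxia gene was Egln1, which encodes the prolyl hydroxylase PHD2. It measured 12.8 and 14.4 CPM at day 0 and 5.51 and 2.73 CPM on day 2 (-1.57 ± 0.33, adjusted p = 0.000379). Egln1 was picked out after its values were seen, as was Pdk1 above. In BFP negative cells of day 2 Egln1 measured 21 and 21.2 CPM, so the sorted populations lay on either side of day 0, and their difference was -2.20 ± 0.29 (adjusted p = 1.18e-07). Transcripts of Hif1a itself measured 31.2 and 26.9 CPM at day 0 and 30.6 and 39.5 CPM on day 2, with overlapping groups (0.22 ± 0.18, adjusted p = 0.45).

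Glycolysis genes were higher along the pathway, in a list that shares members with the hypoxia list, Ldha and Aldoa among them. Of 20 tested, 12 were called higher and 1 lower (median 0.41), and leaving out any library left 10 to 13 higher. Ldha, which turns pyruvate into lactate, went from 538 and 541 CPM to 1192 and 1043 CPM (1.06 ± 0.08, adjusted p = 9.03e-18). Aldoa, the aldolase, went from 373 and 344 CPM to 703 and 609 CPM (0.88 ± 0.09, adjusted p = 2.41e-12). Pgk1, a kinase of a step that yields ATP, went from 131 and 136 CPM to 230 and 205 CPM (0.72 ± 0.10, adjusted p = 9.66e-08). All of these separated the groups. Tpi1 rose by 0.67 ± 0.08. Pgam1 (1.03 ± 0.17), Pfkl (0.62 ± 0.09) and Eno1 (0.49 ± 0.08) rose too, and these, like Hk1, were picked after their values were seen. Hk1, a hexokinase, was the called gene that was lower (-0.21 ± 0.07, adjusted p = 0.0338), a call lost without any of the 4 libraries (-0.18 and -0.25 without day 0 replicates 1 and 2, -0.23 and -0.19 without the day 2 ones). The glucose transporter Slc2a1 measured 29.1 and 30.1 CPM at day 0 and 36.5 and 35.4 CPM on day 2 and did not pass (0.29 ± 0.17, adjusted p = 0.262).

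**Figure D2:**
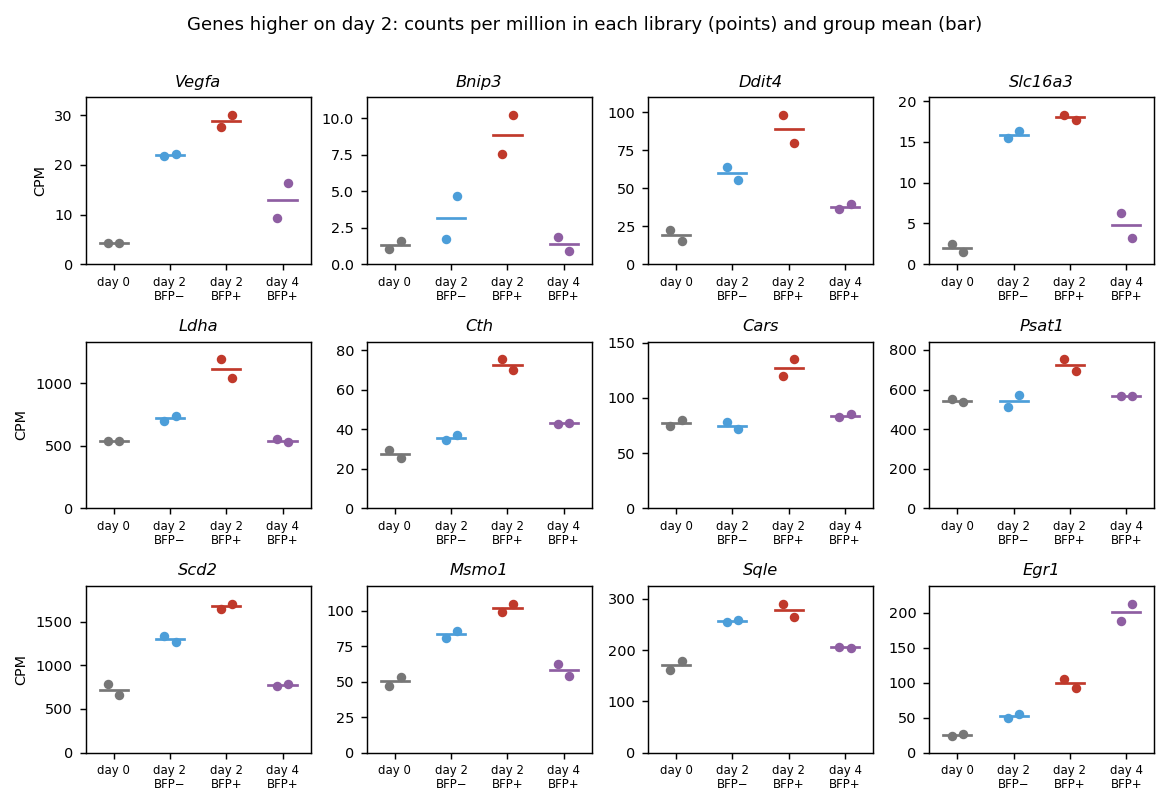
CPM (y axes, from 0) of 12 genes in each library of day 0, BFP negative day 2, BFP positive day 2 and BFP positive day 4 control cells; points are libraries and bars are means of 2. Vegfa, Slc16a3, Msmo1 and Sqle are also above day 0 in BFP negative cells, Cars and Psat1 are near day 0 there, and Egr1 is highest on day 4.

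Genes of the amino acid stress response were higher as a group. Of 47 listed, 37 were tested, 21 were called higher and 0 lower, with a median of 0.34; leaving out a library gave 15 to 21, and DESeq2 18. Cth (cystathionine gamma-lyase, which makes cysteine; ENSMUSG00000028179, chromosome 3, 157894248 to 157925077) went from 29.4 and 25.4 CPM to 75.4 and 70.2 CPM (1.42 ± 0.15, adjusted p = 5.38e-11). Cars, the cysteinyl-tRNA synthetase, went from 74.5 and 80.5 CPM to 119.5 and 134.9 CPM (0.70 ± 0.11, adjusted p = 3.29e-06). Psat1, an enzyme of serine synthesis, went from 553 and 535 CPM to 752 and 694 CPM (0.41 ± 0.08, adjusted p = 4.6e-05). In all of them the day 2 libraries were above both day 0 libraries, with Cth the furthest in size of the 3.

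Regulators within the same list rose as well. Cebpg, a partner of ATF4 on DNA, rose by 0.67 ± 0.12 (adjusted p = 1.4e-05), and Sesn2, a leucine sensor that restrains mTORC1, by 0.90 ± 0.16 (adjusted p = 2.34e-05). Atf5, another factor of the response, went from 7.10 and 6.25 CPM to 16.9 and 17.0 CPM (1.33 ± 0.30, adjusted p = 0.00087). Asns, the asparagine synthetase whose response element is shown above, went from 810 and 818 CPM to 1126 and 1004 CPM (0.39 ± 0.07, adjusted p = 5.42e-05). Slc1a5, a glutamine transporter, went from 140.9 and 125 CPM to 188 and 204 CPM (0.55 ± 0.10, adjusted p = 2.4e-05). Atf5, Asns and Slc1a5 were picked after their values were seen. Chac1, a glutathione-degrading enzyme, measured 2.13 and 0.391 CPM at day 0 and 11 and 6.82 CPM on day 2 (2.84 ± 0.53, adjusted p = 6.15e-05), from 7 and 42 counts, and without day 2 BFP positive replicate 1 it missed the threshold (2.35, adjusted p = 0.0512). Trib3, a pseudokinase that feeds back on ATF4, rose by 1.56 ± 0.22, and without that same library it also missed it (0.89, adjusted p = 0.0604).

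Of 25 sterol synthesis genes 19 were higher and 1 lower (median 0.65), the lower call being lost without day 0 replicate 2 or either day 2 BFP positive replicate, and 16 or 17 were higher whichever library was left out. Sqle, the squalene epoxidase, went from 162 and 179 CPM to 291 and 264 CPM (0.71 ± 0.09, adjusted p = 7.53e-09). Msmo1, a sterol demethylase, went from 47.2 and 53.5 CPM to 98.8 and 105 CPM (1.01 ± 0.13, adjusted p = 1.3e-08). No day 2 library of these genes reached down to day 0. Acat2 (0.99 ± 0.13) and Cyp51 (0.68 ± 0.11) rose, as did Hmgcs1, which holds the sterol element shown above (38.3 and 38.3 CPM at day 0, 64.7 and 71.5 CPM on day 2; 0.81 ± 0.14, adjusted p = 2.12e-05). Insig1, the retention protein of SREBP and itself a target, rose by 0.57 ± 0.12 (adjusted p = 0.000423). Hmgcs1 and Insig1 were picked after their values were seen.

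Of 15 fatty acid synthesis genes tested, 8 were called higher and 1 lower (median 0.25), with 4 higher without day 0 replicate 2 and 5 without day 2 BFP positive replicate 1. Scd2, a stearoyl-CoA desaturase, went from 787 and 657 CPM to 1650 and 1708 CPM (1.22 ± 0.08, adjusted p = 1.61e-20). Scd1, its paralog, went from 87.7 and 72.7 CPM to 142.9 and 130.2 CPM (0.78 ± 0.11, adjusted p = 2.26e-07). Both desaturases were higher without overlap, as were Acsl3, an acyl-CoA synthetase (0.73 ± 0.14), and Elovl6, an elongase (0.53 ± 0.12). Fasn, the synthase that builds palmitate, was the lower one, at 511 and 502 CPM on day 0 and 401 and 358 CPM on day 2 (-0.40 ± 0.09, adjusted p = 0.000618; picked after its values were seen). Acaca and Acly, which supply its substrates, had overlapping groups and did not pass (-0.08 and 0.04).

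**Figure D3:**
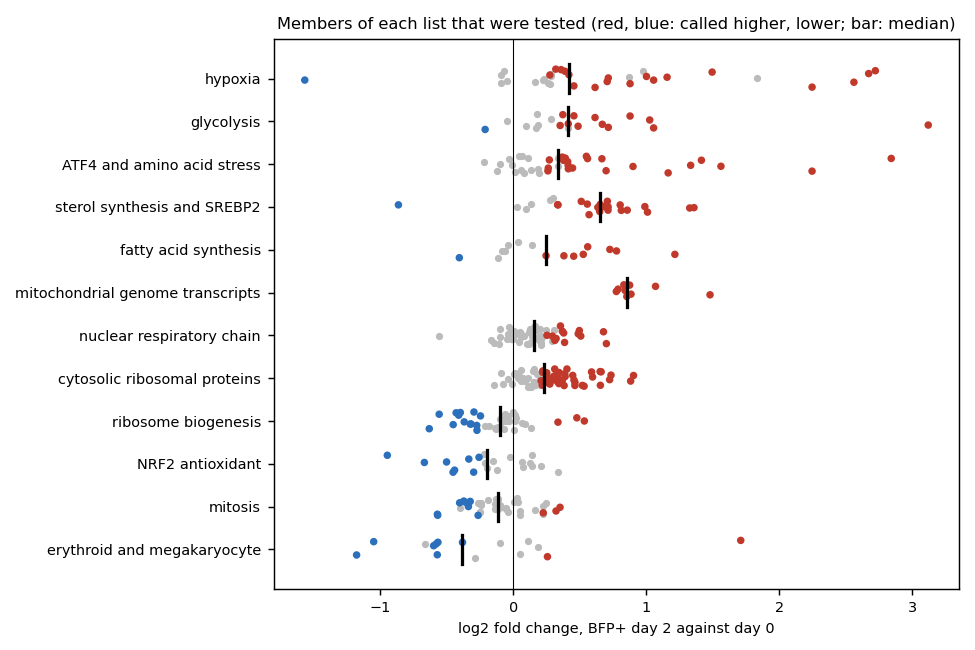
Log2 fold change of BFP positive day 2 against day 0 (x axis) for each tested member of 12 gene lists (y axis); red and blue points were called higher and lower, grey points were not called, and bars are medians. The sterol list (median 0.65) and the mitochondrial genome (0.85) lie farthest to the right, and the erythroid list (-0.38) farthest to the left.

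Outside these lists, the largest rises among genes with at least 5 CPM and groups that do not overlap fell on low-level genes. Slitrk5, a neuronal transmembrane protein, went from 1.06 and 0.391 CPM to 9.98 and 10.9 CPM (3.73 ± 0.57, adjusted p = 1.1e-06), from 4 and 45 counts. Itm2a, a membrane protein, went from 2.13 and 1.95 CPM to 14.1 and 10.2 CPM (2.62 ± 0.43, adjusted p = 4.43e-06). Cited1, a transcriptional co-regulator that binds CBP and p300, went from 7.81 and 4.30 CPM to 29.3 and 23.2 CPM (2.13 ± 0.27, adjusted p = 8.99e-09). Each sat near its day 0 level again on day 4, at 0.94 and 1.40 CPM for Slitrk5, 0.94 and 2.80 CPM for Itm2a and 8.14 and 7.46 CPM for Cited1. As these genes were picked for high day 2 values, lower values in other groups are partly built in. Pde4dip, a Golgi and centrosome scaffold, rose by 2.24 ± 0.34 (adjusted p = 1.1e-06). The calls of Cxxc5 (2.48 ± 0.58) and Atp6v0a4 (2.46 ± 0.63) were lost without day 0 replicate 1 (2.01 and 2.14, adjusted p = 0.0527 and 0.076).

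The largest falls also fell on low levels. They were picked for low day 2 values, so higher values in other groups are partly built in. C1s1, a complement serine protease, had the highest day 0 level of the 12 largest falls and measured 50 and 48.8 CPM at day 0 and 10.7 and 7.5 CPM on day 2 (-2.36 ± 0.21, adjusted p = 6.98e-14). In BFP negative cells it measured 28.3 and 28.4 CPM, between the other groups. Traf3, an adaptor of TNF receptor signalling, went from 16.3 and 16.0 CPM to 4.13 and 2.73 CPM (-2.14 ± 0.34, adjusted p = 3.8e-06). Traf3 measured 15.4 and 11.9 CPM in BFP negative cells, close to day 0.

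Slfn9, a Schlafen family member, measured 5.68 and 8.59 CPM at day 0 and 0.344 and 0 CPM on day 2, which is 38 against 1 count and a ratio of 0.0324 (counting interval 0.000799 to 0.192). Its BFP negative libraries were as low (0.428 and 0.700 CPM), and on day 4 it measured 5.64 and 9.33 CPM. Afap1l1, an actin-associated protein, fell from 27 to 2 counts (ratio 0.0911, 0.0105 to 0.363), and Sec16b from 31 to 3 counts (0.119, 0.0233 to 0.382). For Slfn9, Afap1l1, Sec16b and B4galt5 (47 and 7 counts, ratio 0.183, 0.0699 to 0.408) the call was made whichever library was left out, but the fitted size moved by more than 1.5 times. H2afy, which encodes the histone variant macroH2A1, went from 8.52 and 9.37 CPM to 1.38 and 0.681 CPM (-2.93 ± 0.54, adjusted p = 4.05e-05). Cpxm1, Nek6, Plekhh2, Plcd4 and the platelet glycoprotein Gp5 fell by 2.18 to 2.58 on the log2 scale. Several of the genes of this paragraph, and Traf3 and C1s1 above, overlap other annotated genes, so some of their reads may belong to those.

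**Figure D4:**
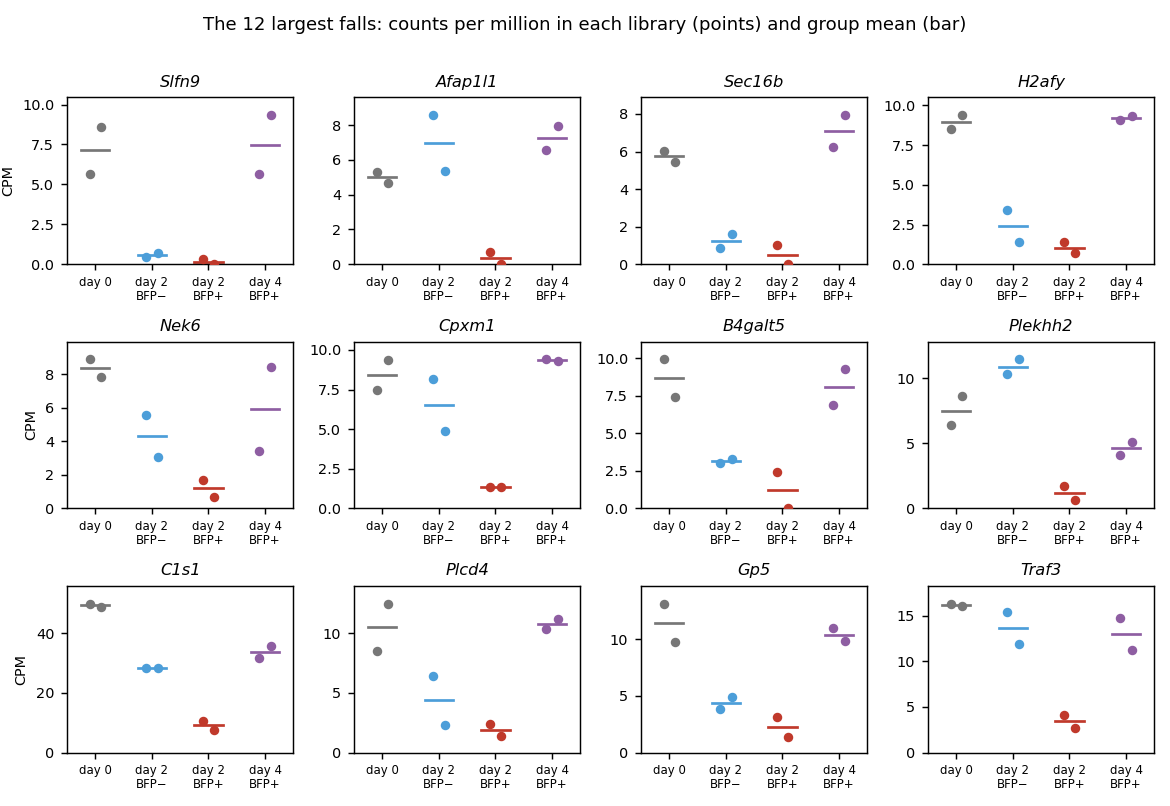
CPM (y axes, from 0) of the 12 genes with the largest falls in each library of day 0, BFP negative day 2, BFP positive day 2 and BFP positive day 4 control cells; points are libraries and bars are means of 2. The BFP positive day 2 libraries are the lowest or among the lowest in each panel, Slfn9 and H2afy are also low in BFP negative cells, and Afap1l1, Cpxm1, Plekhh2 and Traf3 are not.

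Genes with falls of more than 2-fold were expressed at a low level. Their median level was 7.55 CPM and 81 of 139 (58.3%) were under 10 CPM, against 43.5 CPM and 19.2% over all tested genes; 84.2% were protein coding, against 93.4%. Rises of more than 2-fold were also on low-level genes (median 8.82 CPM, 54.8% under 10 CPM), with 94.4% protein coding. By annotated class, the median log2 fold change was 0.01 over 10080 protein-coding genes, -0.37 over antisense genes, -0.14 over 181 lincRNA genes and -0.34 over 80 processed pseudogenes. The fewer genes detected in the day 2 BFP positive libraries at equal depth, given above, moved with these falls, and their part in them was not tested.

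The labelled myeloid leukemia was checked against markers of blood lineages. On both days part of the mast cell and erythroid markers were present, while granulocyte markers were at or near 0. Of 19 granulocyte markers 15 had 0 counts in all 4 libraries and 0 passed the filter, and the summed level of the list was 1.77 and 1.17 CPM at day 0 and 0.665 and 1.33 CPM on day 2. B cell markers summed to 0 and 0 CPM at day 0 and 1.33 and 0.667 CPM on day 2, T and NK cell markers to 8.48 and 5.06, then 14 and 11.3 CPM, monocyte and macrophage markers to 10.2 and 6.62, then 9.31 and 14 CPM, and fibroblast markers to 30.4 and 28.4, then 24.6 and 24.0 CPM. Mast cell and basophil markers summed to 1170 and 1090 CPM at day 0 and 1140 and 1170 CPM on day 2, and the erythroid list to 2820 and 2920, then 2650 and 2730 CPM. Of the 14 mast cell and basophil markers, 6 had 0 counts in all 4 libraries and 6 were tested, Kit and Gata2 among them. The stem and progenitor list, which also holds Kit, summed to 656 and 608, then 582 and 613 CPM. The part of these sums in the results was not tested.

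Within the erythroid and megakaryocyte list 7 of 15 tested genes were called lower and 2 higher (median -0.38), and 5 were lower and 1 higher whichever of the 4 libraries was left out. Hemoglobin genes went down: Hbb-bs from 164 and 175 CPM to 93.6 and 62.7 CPM (-1.05 ± 0.11, adjusted p = 7.93e-11). Hba-a1 went from 224 and 239 CPM to 164 and 137 CPM (-0.60 ± 0.10, adjusted p = 3.88e-06). Hbb-bt fell by 1.18 ± 0.21 on the log2 scale (adjusted p = 1.8e-05). Members of the globin clusters are near-identical copies, so how reads were shared among them is uncertain. Klf1, picked after its values were seen, was called higher, but not after thinning to equal depth (0.25, edgeR adjusted p = 0.211). Its call was also lost without any of the 4 libraries. The log2 change was then 0.21 and 0.31 without day 0 replicates 1 and 2, and 0.22 and 0.29 without the day 2 BFP positive ones. Klf1 was therefore not the higher gene that remained in those fits. Changes in the tested genes of the list ran from -1.18 to 1.71 on the log2 scale. BFP negative cells of day 2 had 4 genes of the list higher and 1 lower than day 0 (median -0.01), beside 5.33% and 4.98% over all genes. In the direct comparison 1 was higher and 6 were lower in BFP positive cells (median -0.45), with 4 lower by DESeq2.

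Of 6 tested mast cell and basophil genes 2 were called higher and 0 lower. Ms4a2, the beta chain of the IgE receptor, went from 17.4 and 19.9 CPM to 30.6 and 40.2 CPM (0.87 ± 0.19, adjusted p = 0.000732), and Il1rl1, the IL33 receptor, from 146 and 139 CPM to 206 and 198 CPM (0.51 ± 0.10, adjusted p = 0.000132). Hdc, the histamine-making enzyme, measured 307 and 306 CPM at day 0 and 311 and 309 CPM on day 2. Kit, the receptor for SCF, measured 557 and 499 CPM and then 481 and 508 CPM (-0.10 ± 0.08, adjusted p = 0.403). Gata2, the transcription factor of mast cells and progenitors, did not pass against day 0 (143.4 and 124.6 CPM, then 147 and 136 CPM; 0.09 ± 0.10, adjusted p = 0.597), while BFP negative cells of day 2 held 236 and 207 CPM. The difference of the sorted populations was -0.62 ± 0.09 (adjusted p = 2.16e-06). Of the 4 genes of the genotype and the hairpins, 2 were called lower. Nf1 measured 66.7 and 57.0 CPM and then 39.2 and 45.7 CPM (-0.58 ± 0.14, adjusted p = 0.00272), a call that was lost without day 0 replicate 1 (-0.45, adjusted p = 0.0973) and without day 2 BFP positive replicate 1 (-0.45, adjusted p = 0.167). Trp53 measured 361 and 353 CPM and then 298 and 286 CPM (-0.29 ± 0.09, adjusted p = 0.0195), and its call was lost without any of the 4 libraries (-0.33 to -0.25, adjusted p = 0.07 to 0.128). Kmt2c (-0.18 ± 0.10, adjusted p = 0.258) and Ogdh, the target of hairpins not used in these groups (-0.23 ± 0.09, adjusted p = 0.0582), did not pass.

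Immediate early genes, which answer growth factor signalling, went both ways. Of 25 tested, 4 were called higher and 3 lower, beside 9.10% and 8.77% over all genes. The higher count was 2 without day 2 BFP positive replicate 1 and by DESeq2. Egr1, a zinc finger factor of this class, went from 24.1 and 26.9 CPM to 105 and 92.7 CPM (1.98 ± 0.15, adjusted p = 1.79e-16). It was higher again on day 4, at 188 and 213 CPM. Fos rose from 1 to 24 counts, a ratio of 29.5 (counting interval 4.81 to 1210), and the size of its fitted change moved by more than 1.5 times when a library was left out. Fosl1, a partner of Jun proteins, measured 20.6 and 24.2 CPM at day 0 and 6.2 and 6.82 CPM on day 2 (-1.79 ± 0.28, adjusted p = 2.17e-06). Etv5, an ERK-responsive ETS factor, went from 125 and 102 CPM to 79.5 and 62.0 CPM (-0.65 ± 0.12, adjusted p = 6.47e-05). Myc did not pass (349 and 346 CPM, then 348 and 357 CPM; 0.02 ± 0.08, adjusted p = 0.907).

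Transcripts of the mitochondrial genome were all higher. Of 15 listed, 9 were tested and 9 were called higher (median 0.85), whichever library was left out. mt-Nd2, a subunit of complex I, went from 1182 and 1182 CPM to 3122 and 3478 CPM (1.48 ± 0.08, adjusted p = 2.42e-23), and mt-Cytb, of complex III, from 3679 and 3400 CPM to 6172 and 6518 CPM (0.84 ± 0.07, adjusted p = 1.34e-14). The untested ones, such as mt-Co2, were listed at 0 in these 4 libraries, although every cell uses them, so these zeros are no level. Nuclear genes of the respiratory chain moved less, with 13 of 57 higher and 0 lower (median 0.16), 5 without day 2 BFP positive replicate 1 and 6 without day 0 replicate 1. Uqcrc2, a core subunit of complex III, went from 171 and 177 CPM to 301 and 259 CPM (0.70 ± 0.09, adjusted p = 3.02e-08). Cox6b1, of complex IV, rose by 0.68 ± 0.10. Of 17 mitochondrial chaperones and proteases 0 were called in either direction.

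Ribosome genes divided by role. Cytosolic ribosomal proteins were higher in 43 of 75 and lower in 0 (median 0.23), a count that was 21 without day 2 BFP positive replicate 1 and 27 without day 0 replicate 2. Rps12 went from 1956 and 1912 CPM to 3877 and 3247 CPM (0.88 ± 0.08, adjusted p = 1.5e-14), and Rps13 from 285 and 296 CPM to 469 and 495 CPM (0.73 ± 0.08, adjusted p = 2.23e-10). Ribosomal proteins have many processed copies in the genome, so their reads may be shared with these. Ribosome biogenesis genes, which make and process ribosomal RNA, were lower in 13 of 40 and higher in 3 (median -0.10), with 7 lower without either day 2 BFP positive replicate or without day 0 replicate 1, and 5 without day 0 replicate 2. Nol6, a nucleolar factor of the small subunit, went from 304 and 322 CPM to 216 and 183 CPM (-0.63 ± 0.10, adjusted p = 1.06e-06). Rrp12 (-0.56 ± 0.11) and Nop2 (-0.41 ± 0.08) fell, while the nucleolar proteins Fbl (0.54 ± 0.11) and Npm1 (0.34 ± 0.07, picked after its values were seen) rose.

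Antioxidant genes of the NRF2 pathway were lower in 8 of 21 and higher in 0 (median -0.20), with 4 lower without day 0 replicate 2 and 5 without day 2 BFP positive replicate 1. Srxn1, the sulfiredoxin, went from 70.6 and 71.5 CPM to 36.5 and 37.5 CPM (-0.95 ± 0.14, adjusted p = 1.11e-06). Nqo1, a quinone reductase, went from 146.9 and 129.3 CPM to 97.1 and 70.9 CPM (-0.67 ± 0.11, adjusted p = 1e-05). Both fell without overlap. Cytosolic heat shock genes were higher in 5 of 16 and lower in 0, with 3 without day 0 replicate 2. Hspa8, the constitutive HSP70, went from 1860 and 1892 CPM to 2775 and 2543 CPM (0.50 ± 0.07, adjusted p = 8.19e-08), and its co-chaperone Hsph1 rose by 0.54 ± 0.08.

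Of 45 DNA replication genes 4 were higher and 2 lower (median 0.00), beside 9.10% higher and 8.77% lower over all genes. Without day 0 replicate 2 the higher count was 2, and without day 0 replicate 1 the lower count was 1. Ccne2, a cyclin of the start of DNA synthesis, rose (0.73 ± 0.16), and the licensing factor Cdt1 fell (-0.41 ± 0.09). Of 39 mitosis genes 3 were higher and 8 lower (median -0.12). The lower count was 4 without day 0 replicate 2 or day 2 BFP positive replicate 1 and 5 without day 2 BFP positive replicate 2, and the higher count was 0 without that last library and 1 without any of the other 3. Espl1, the separase that cuts cohesin, went from 313 and 313 CPM to 213 and 208 CPM (-0.57 ± 0.09, adjusted p = 6.05e-06). Interferon response genes were lower in 3 of 19 and higher in 0 (median -0.27), with 1 lower without day 0 replicate 2 and 0 without day 2 BFP positive replicate 1 or by DESeq2. Targets of p53 were higher in 5 of 21 and lower in 2 (median 0.20), with 2 higher and 0 lower without day 0 replicate 2 or without either day 2 BFP positive replicate.

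The BFP negative cells of day 2 shared the doxycycline and the sort but not the induced hairpin, and their direct comparison with BFP positive cells tests whether the change from day 0 differed. It called 672 genes (6.23%), 324 higher (3.0%) and 348 lower (3.22%) in BFP positive cells, and 233 without day 2 BFP positive replicate 1, 434 without BFP negative replicate 1 and 223 by DESeq2. Both populations were set against the same day 0 libraries. BFP negative cells had 1112 genes called against day 0 (10.3%; 5.33% higher, 4.98% lower). They too had 9 of 9 mitochondrial genome transcripts higher (median 0.493) and 29 of 75 cytosolic ribosomal proteins higher (0.187). Of these, 7 and 11 were higher still in BFP positive cells by the direct comparison (3 and 6 by DESeq2). Among BFP negative cells 7 of 21 NRF2 genes were lower than day 0 (median -0.155). Ribosome biogenesis had 10 of 40 lower and 1 higher there (-0.163). In the hypoxia list they had 15 higher (median 0.40, beside 0.42 in BFP positive cells), and the direct comparison called 5 higher and 1 lower (median 0.07; 2 higher without day 2 BFP positive replicate 1 and by DESeq2). In the sterol list they had 11 higher (median 0.46, beside 0.65), and the direct comparison called 2 higher and 1 lower (0 higher without day 2 BFP positive replicate 1, 1 without replicate 2 or without BFP negative replicate 1).

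Vegfa shows this, at 21.8 and 22.1 CPM in BFP negative cells. Its difference from BFP positive cells was 0.37 ± 0.20 (adjusted p = 0.305), and a p that misses the threshold does not show that they were alike. Slc16a3 (15.4 and 16.3 CPM; 0.18 ± 0.23, adjusted p = 0.75), P4ha1 (70.2 and 75.1 CPM; 0.09 ± 0.12, adjusted p = 0.768) and Sqle (256 and 260 CPM; 0.11 ± 0.08, adjusted p = 0.501) lay nearer to BFP positive cells than to day 0 as well. Ldha, in the same pathways, was further up in BFP positive cells, with 702 and 738 CPM in BFP negative ones (0.64 ± 0.07, adjusted p = 2.52e-09), as was Aldoa (0.56 ± 0.08, adjusted p = 2.1e-06). Bnip3 (1.71 and 4.66 CPM) differed by 1.23 ± 0.40 (adjusted p = 0.0488), a call lost without BFP negative replicate 1 (0.87, adjusted p = 0.304) and without either BFP positive replicate (1.5 and 1.08, adjusted p = 0.157 and 0.223). Ddit4 (64.2 and 55.7 CPM) differed by 0.62 ± 0.13 (adjusted p = 0.000698), lost without BFP positive replicate 1 (0.43, adjusted p = 0.244).

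The amino acid stress genes differed between the sorted populations. BFP negative cells had 2 of 37 higher and 3 lower than day 0 (median 0.05), while 20 were higher in BFP positive than in BFP negative cells and 0 lower (median 0.31). That count was 6 without day 2 BFP positive replicate 1 and 10 by DESeq2. Cth measured 34.7 and 37.1 CPM in BFP negative cells (difference 1.02 ± 0.14, adjusted p = 1.75e-07), Cars 77.9 and 71.6 CPM (0.76 ± 0.11, adjusted p = 7.2e-07) and Psat1 511 and 572 CPM (0.42 ± 0.08, adjusted p = 8.97e-05). These are the levels of day 0 for Cars and Psat1, and a small step above it for Cth, and the 3 calls were made whichever library was left out. Slc1a5 differed by 0.53 ± 0.10 (adjusted p = 6.54e-05). Scd1 was also higher in BFP positive cells, with 73.7 and 70.7 CPM in BFP negative cells (0.94 ± 0.11, adjusted p = 2.58e-09), while Scd2 was up in both (1339 and 1270 CPM; 0.36 ± 0.07, adjusted p = 0.000428). Perp, a p53 target in the cell junction, went the other way, with 105 and 112 CPM in BFP negative and 57.5 and 50.4 CPM in BFP positive cells (-0.99 ± 0.12, adjusted p = 1.12e-08).

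**Figure D5:**
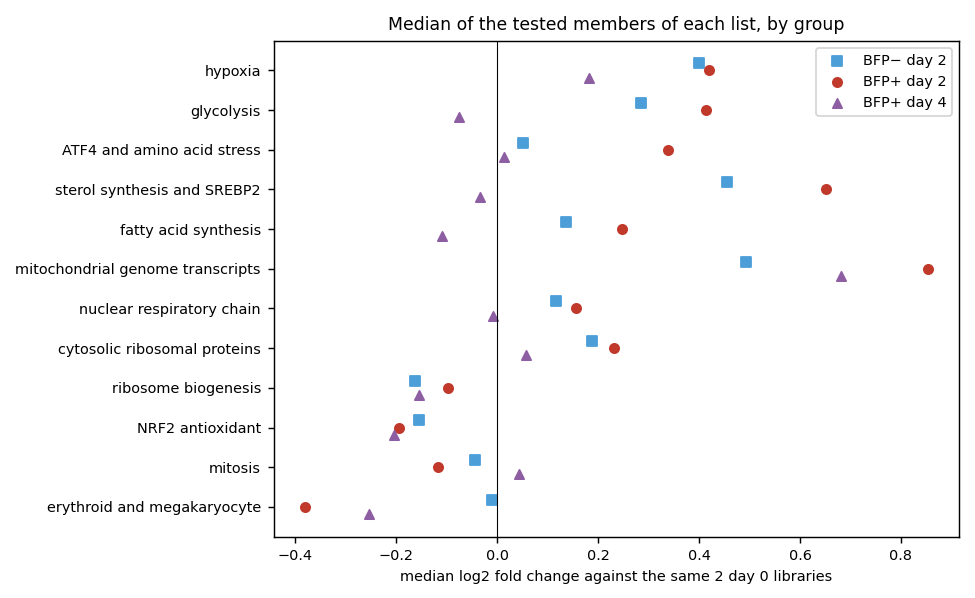
Median log2 fold change against the same 2 day 0 libraries (x axis) over the tested members of 12 gene lists (y axis) in BFP negative day 2 (squares), BFP positive day 2 (circles) and BFP positive day 4 control cells (triangles). For hypoxia the day 2 medians are 0.40 and 0.42, and for the amino acid stress list 0.05 and 0.34. On day 4 the medians farthest from 0 are those of the mitochondrial genome (0.681), erythroid (-0.254), NRF2 (-0.205), hypoxia (0.183) and ribosome biogenesis (-0.155) lists.

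By day 4 many of these genes were lower again. The comparison reuses the day 2 BFP positive libraries in which they were called higher. Its hypoxia and glycolysis counts share members such as Ldha. BFP positive cells of day 4 against those of day 2 had 1286 genes called (11.9%), 634 higher (5.88%) and 652 lower (6.04%), and 367 without day 2 BFP positive replicate 1, 654 without day 4 replicate 1 and 658 without day 4 replicate 2. Members that were lower on day 4 than on day 2 numbered 14 of 33 for hypoxia (9 without day 2 BFP positive replicate 1), 15 of 20 for glycolysis, 24 of 37 for amino acid stress (9 without that library, 13 without day 4 replicate 1) and 19 of 25 for sterol synthesis (12 without day 2 BFP positive replicate 1). Higher members numbered 1 for hypoxia (0 without day 4 replicate 1) and 0 in the other lists. Set against the day 0 libraries, which the day 2 comparison shares, BFP positive cells of day 4 had 767 genes called (7.11%; 3.46% higher, 3.65% lower), and list medians of 0.18, -0.08, 0.01 and -0.03 in the same order. Other lists were no nearer to day 0 on day 4. Against day 0 the NRF2 median was -0.205 (-0.195 on day 2) and that of ribosome biogenesis -0.155 (-0.098 on day 2). The erythroid list had a day 4 median of -0.254.

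Ldha measured 554 and 531 CPM on day 4 (-1.05 ± 0.08 against day 2, adjusted p = 2.9e-17), and Scd2 761 and 788 CPM (-1.12 ± 0.08, adjusted p = 2.18e-18), each near its day 0 values. Slc16a3 measured 6.26 and 3.26 CPM (-1.83 ± 0.31, adjusted p = 1.23e-05), and Bnip3 1.88 and 0.933 CPM (-2.48 ± 0.51, adjusted p = 0.000361). Ddit4 (36.3 and 39.6 CPM; -1.27 ± 0.14, adjusted p = 1.13e-09) and Cth (42.9 and 43.4 CPM; -0.77 ± 0.14, adjusted p = 5.47e-05) were lower than on day 2 and above both day 0 libraries. Vegfa was spread on day 4, at 9.40 and 16.3 CPM (-1.21 ± 0.23, adjusted p = 9.61e-05), and without day 4 replicate 1 the call was lost (-0.81, adjusted p = 0.06). C1s1 returned part of the way, to 31.6 and 35.9 CPM (1.8 ± 0.23, adjusted p = 1.85e-08), and Traf3 to 14.7 and 11.2 CPM (1.85 ± 0.36, adjusted p = 0.000153). The mitochondrial genome had a median of 0.68 against day 0. Against day 2, 4 of its 9 transcripts were lower and 1 higher (median -0.16), with 1 lower without day 2 BFP positive replicate 2 or either day 4 replicate, and 0 higher without day 2 BFP positive replicate 1 or either day 4 replicate. mt-Nd5 measured 1745 and 1809 CPM on day 4 (-0.23 ± 0.07, adjusted p = 0.0321), below day 2 and above day 0. That call was lost without any of the 4 BFP positive libraries of day 2 and day 4 (-0.263 to -0.215). It was also lost after thinning to equal depth (-0.207, edgeR adjusted p = 0.118). mt-Nd2 measured 2884 and 3007 CPM (-0.16 ± 0.08, adjusted p = 0.174). The globin Hbb-bs, at 76.4 and 73.7 CPM, did not pass against day 2 (-0.12 ± 0.13, adjusted p = 0.604). Egr1 rose further (0.99 ± 0.11, adjusted p = 6.39e-10).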

How the data were processed

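The authors deposited whole-number counts of reads per gene, 1 column per library, not normalized. Per the submitters' processing notes, FastQC 0.11.5, Trimmomatic 0.36, STAR 2.6.1a and featureCounts 1.6.3 were used with the builds mm10 and GRCm38. The labels' protocols instead name HTSeq, RPKM and a human build, and describe polyA-selected TruSeq libraries read as single ends of 76 bases. The identifiers are those of mouse Ensembl, and of 53274 genes also in GENCODE M21 (release 21), 96.36% have the same coordinates there. Strand setting and treatment of reads with several matches: not given in the sources used here.

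Genes were kept by filterByExpr over the 7 groups, scaled by trimmed mean of M values factors (0.968 to 1.013) and tested with the two-sided quasi-likelihood test of edgeR 4.0.16 (R 4.3.3). A single model held all 14 libraries with the group as its term (residual and prior degrees of freedom 7 and 57.6, biological coefficient of variation 5.04%). Library totals ran from 913482 to 10271698 counts. CPM are of the counts on tested genes after scaling, and summed marker levels are of the library total. With 2 libraries against 2, an exact permutation test cannot go below 0.333, so none was used. Counting intervals are 95% intervals of a ratio of counts and cover counting error only, as the reads carry no molecular identifiers.

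The members and gene lists were chosen with earlier results of these data known. Genes were named by a rule: Vegfa, Bnip3, Cth and Ddit4; the 12 largest rises and the 12 largest falls among called genes with at least 5 CPM in the higher group, groups that do not overlap and a symbol that is not a predicted or clone-named gene; up to 5 called members of each list with the smallest p, or the 2 members with the highest level where none was called; and the genotype genes. Genes outside it were chosen after their values were seen: those marked so, and Acaca, Acly, Gata2, Hdc, Hif1a, Kit, Myc and Slc2a1. Some items are not reported here. Promoters were taken from RefSeq (GRCm38.p6). The day 0 comparison was tested on simulated data of the same 10791 genes: of 50 genes each, with a mean of at least 20 counts, it found 12% at a 1.25-fold change, 68% at 1.5-fold, 86% at 2-fold and 100% at 4-fold, and 5.67% of its calls were false. The simulated counts were drawn from the fitted model itself, so that share does not give the error rate of the real calls. Genes with fewer counts were given no change, so recovery at low levels was not tested. The alternatives were replicate blocks, fewer libraries in the fit, RLE and upper quartile scaling, DESeq2 1.42.0, other filters on low counts, thinning to equal depth and leaving out each library.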

Additional observations from a re-analysis of the deposited data

Results flagged for a closer look

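The change from day 0 differed between BFP positive and BFP negative cells of day 2 in 672 genes, by the direct comparison of the sorted populations (edgeR quasi-likelihood test, adjusted p under 0.05; the day 0 term cancels). Among Vegfa, Bnip3, Cth, Ddit4 and the genes with the 12 largest rises and 12 largest falls from day 0, 11 passed in this comparison too. The rises and falls were picked in the same BFP positive libraries, so their passing here is partly built in. Over all tested genes 6.23% passed. BFP positive cells were higher for Bnip3 (log2 difference 1.23), Cth (1.02), Ddit4 (0.62), Slitrk5 (1.18), Chac1 (2.06) and Pde4dip (0.94), and lower for Afap1l1 (-3.73), Cpxm1 (-2.12), Plekhh2 (-2.97), C1s1 (-1.56) and Traf3 (-1.84).

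Cth, Afap1l1, Plekhh2, C1s1 and Traf3 passed whichever of the 4 libraries was left out, though the size for Afap1l1, which rests on 2 counts in BFP positive cells, moved by 2.01 times. The losses for Bnip3 and Ddit4 are given above. Slitrk5 lost its call without any of the 4 libraries (0.90 to 1.38, adjusted p = 0.0649 to 0.302), Chac1 without BFP negative replicate 2 (1.89, adjusted p = 0.0517) and BFP positive replicate 1 (1.57, adjusted p = 0.284), and Cpxm1 without BFP negative replicate 1 (-1.80, adjusted p = 0.0801) and BFP positive replicate 1 (-2.12, adjusted p = 0.2). Pde4dip lost its call without 3 of the 4 (0.73 to 0.97, adjusted p = 0.0531 to 0.205). Depth also differed, with 2342968 and 4342673 counts in BFP negative and 3008718 and 1500031 in BFP positive libraries. After thinning to equal depth, Cth, Ddit4 and C1s1 passed, and Traf3 (-2.06, adjusted p = 0.0541), Cpxm1 (-1.49, adjusted p = 0.491) and Pde4dip (1.19, adjusted p = 0.161) did not. The other 5 gave no value there, being below the filter on low counts.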

How the results depend on the processing

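Against day 0, RLE and upper quartile scaling (1927 and 1945 calls), fewer libraries in the fit (1854 and 1945) and a filter of 5 CPM (1915) left the count within 1.5 times of 1928, as did no filter (1537). Thinning to equal depth gave 767 calls (397 higher, 370 lower), and DESeq2 gave 817 (427 and 390), all of them among the 1928. Leaving out a library gave 860 to 1373 (460 to 751 higher, 400 to 622 lower). Between BFP positive and BFP negative cells of day 2, thinning gave 236 (106 and 130), DESeq2 223 (107 and 116), the 4 libraries alone 204 higher, and leaving out a library 233 to 623 (115 to 307 higher, 118 to 316 lower). Between day 4 and day 2, thinning gave 475 (234 and 241), DESeq2 540 (251 and 289), and leaving out a library 367 to 1167 (169 to 493 higher, 198 to 674 lower). Where a library was left out of a pair, the lone one was assumed to vary like the other groups. Of 161 genes of the report or the naming rule that were called against day 0, 99 were called whichever library was left out and 90 under every alternative. Reversals were Gla after thinning (-0.031, adjusted p = 0.977) and, between the populations of day 2, Trib3 without BFP positive replicate 1 (-0.004, adjusted p = 0.998; 0.964 without replicate 2).

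Same-numbered libraries of day 0 and BFP positive day 2 deviated with a correlation of -0.00425, those of the day 2 populations with -0.0121 and those of BFP positive day 2 and day 4 with 0.0654. Over all pairs of groups in the series the values ran from -0.235 to 0.305, and no label says that a number marks a shared culture or day, so the numbers were not taken as pairs. With the replicate number as a block, 2018, 723 and 1366 genes were called in the 3 comparisons (2057, 755 and 1370 over the 10 control libraries).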

Other observations

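Genes of lysosomes and iron handling, outside the comparisons above, held single changes rather than a shared one. Over all tested genes 9.10% were called higher and 8.77% lower on day 2. Ctsc, the cathepsin that activates granule proteases, went from 38.7 and 43.0 CPM at day 0 to 83.3 and 93.4 CPM in BFP positive cells of day 2 (1.10 ± 0.14, edgeR adjusted p = 5.93e-09), while the lysosome list had 3 of 28 genes higher and 4 lower (median -0.02). Its higher count was 1 without either day 0 replicate or day 2 BFP positive replicate 1, and its lower count 2 without day 0 replicate 2 or day 2 BFP positive replicate 2. Gabarapl1, an autophagosome protein, fell by 0.43 ± 0.11 on the log2 scale. In the iron and heme list 2 of 21 were higher and 2 lower, with 1 higher without day 0 replicate 1 or either day 2 BFP positive replicate, and 1 lower without day 0 replicate 2 or day 2 BFP positive replicate 2. Slc40a1, the iron exporter ferroportin, went from 273 and 266 CPM to 197 and 192 CPM (-0.47 ± 0.09, adjusted p = 8.93e-05), and Cpox, an enzyme of heme synthesis, from 421 and 428 CPM to 550 and 538 CPM (0.36 ± 0.08, adjusted p = 0.000557). On day 4 Slc40a1 (275 and 295 CPM) was back at or above its day 0 values, and Cpox (396 and 396 CPM) was below them.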
